A study of Mus musculus with 6 samples.

Results

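The 10 genes described here are Apoe, Trem2, Gpnmb, Lpl, Fabp5, Cd63, Ctsb, Ctsd, Ctsl and Lgals3, which handle lipids or act in the lysosome of macrophages. They were taken by symbol from the 32285 genes of the count matrices, all 10 were found, and no threshold on a level was applied. The list was drawn up with earlier results of these data known. They are followed in C1q-positive macrophages, C1q-negative monocytes and neutrophils of the mouse colon, library by library. The cells were CD45-positive cells (CD45 marks leukocytes) sorted from colons of wild-type mice and profiled by droplet single-cell RNA sequencing. Specific pathogen free (SPF) mice were sampled as an untreated control (day 0) and after 2 and 7 days of DSS (dextran sulfate sodium), which damages the lining of the colon. Pseudo germ-free (pGF) mice had received antibiotics for 4 weeks at day 0, and at days 2 and 7 they had received antibiotics together with DSS for those days as well. The labels name no antibiotic for the SPF mice, and the age and sex of the mice and the number pooled are not given in the sources used here. Each of the 6 groups is 1 library. No difference has a replicate check, no test was made, and each comparison compares libraries rather than conditions.

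Colonic macrophages are renewed largely from blood monocytes, and maturing cells take on the complement subunits C1qa, C1qb and C1qc. Such cells engulf dying cells and debris and break down the lipid and protein they take in. Apoe encodes the apolipoprotein that carries cholesterol out of macrophages. Trem2 encodes a surface receptor for lipids and lipoproteins that signals through the adaptor Tyrobp. Gpnmb encodes a glycoprotein of lysosomes and related vesicles, Lpl the lipase that frees fatty acids from lipoproteins, and Fabp5 a carrier of fatty acids in the cytosol. Cd63 encodes a tetraspanin of late endosomes and secretory granules. Ctsb and Ctsl encode cysteine proteases of the lysosome and Ctsd its aspartic protease. Lgals3 encodes galectin-3, which binds galactosides and gathers at damaged lysosomes.

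In the GRCm38 build the genes are protein-coding and lie on 8 chromosomes. Apoe lies at chr7:19696109-19699188 (minus strand), Ctsd at chr7:142375911-142388038 (minus), Trem2 at chr17:48346401-48354147 (plus), Gpnmb at chr6:49036546-49070929 (plus) and Fabp5 at chr3:10012548-10016607 (plus). Lpl lies at chr8:68880491-68907448 (plus), Cd63 at chr10:128900989-128912822 (plus), Ctsb at chr14:63122462-63145923 (plus), Lgals3 at chr14:47367751-47386160 (plus) and Ctsl at chr13:64359337-64370890 (minus). RefSeq promoter windows (GRCm38.p6, 250 bases before to 50 after an annotated start) were found for 7 of the 10 genes. For Apoe the table lists 3 starts, and the first is used. Apoe and Trem2 are printed because their levels were the most alike of any pair of the 10. Each line is the 250 bases upstream of a start, read 5′ to 3′ on the gene's strand. They come from chr7:19699189-19699438 and chr17:48346151-48346400. Capitals mark TGANTCA (a loosened form of the AP-1 consensus, with any base in the middle) in Trem2, where it reads TGAATCA.
Apoe: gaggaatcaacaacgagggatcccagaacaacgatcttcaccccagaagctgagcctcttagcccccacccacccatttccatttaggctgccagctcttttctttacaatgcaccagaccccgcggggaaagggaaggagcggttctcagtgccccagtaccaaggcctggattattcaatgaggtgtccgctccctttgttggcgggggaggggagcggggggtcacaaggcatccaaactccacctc
Trem2: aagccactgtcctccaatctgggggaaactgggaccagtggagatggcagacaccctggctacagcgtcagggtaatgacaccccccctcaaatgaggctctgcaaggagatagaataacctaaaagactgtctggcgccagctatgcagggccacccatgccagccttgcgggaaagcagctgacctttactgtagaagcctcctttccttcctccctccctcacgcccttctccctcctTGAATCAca
Of 3 motifs searched on both strands, CACGTG (an E-box, which the CLEAR element of lysosomal genes contains) stood in the windows of 2 of the 7 genes, Ctsd and Ctsl, and in 7.15% of all 32851 windows. TGANTCA stood in Trem2, 9 bases before the start, and in Gpnmb, 8 bases after it, against 7.81% of all windows. The direct repeat of the liver X receptor was in no window of the 7 and in 0.0152% of all. The RefSeq starts listed for Ctsd, Cd63, Ctsl and Lgals3 lie inside the gene spans given above, so their windows lie partly or wholly within the gene and may not hold the main start. No motif overlapped another, and a match is a description of letters only.

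Between 1792 and 11629 barcodes per library were deposited, with 23335071 to 52772901 UMIs (unique molecules). After filtering, 1262 to 9644 cells per library remained, 29130 in all. More than 10% of UMIs were mitochondrial in 61.1% of barcodes at SPF day 2 against 6.41% to 28.1% in the other libraries, and those barcodes were removed. Pairs of libraries shared 5 to 131 barcode sequences. A macrophage-class cell was C1q-positive with C1q at 1000 UMIs or more in 1000000, from at least 2 UMIs, and C1q-negative below that level, and 251 of 3060 such cells lay between 500 and 2000. C1q-positive cells numbered 272, 181 and 456 in SPF at days 0, 2 and 7 and 153, 108 and 150 in pGF. For C1q-negative cells the numbers were 55, 164 and 1362 (SPF) and 11, 24 and 66 (pGF), and for neutrophils 1, 35 and 3678 (SPF) and 5, 40 and 67 (pGF). A class was compared only with at least 20 cells. Median UMIs per cell lay at 1725.5 (SPF day 7) to 6849.5 in C1q-positive cells, 2582.5 to 5887 in the C1q-negative cells compared and 1228 to 2047.5 in the neutrophils compared.

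The class labels were checked against marker genes. C1q-positive cells held 697 to 965 CPM (counts per 1000000 UMIs, over all UMIs of the class in a library) of the macrophage receptor Csf1r and 134 to 536 of Adgre1. C1q-negative cells held 161 to 970 CPM of the monocyte chemokine receptor Ccr2, against 90.4 to 352 in C1q-positive cells, and 318 to 1111 of the monocyte gene Ly6c2, against 39.0 to 467. Ccr2 stood the other way at SPF day 7, at 161 CPM in C1q-negative and 243 in C1q-positive cells, and neutrophils held more Ly6c2 (732) than C1q-negative cells (574). Neutrophils held 24727 to 129290 CPM of S100a8, with Ccr2 at 0 in 3 of 4 libraries. The 20 monocyte or macrophage markers summed to 6876 to 9831 CPM in neutrophils, with all 20 detected at SPF day 7. Among them Cd14 was at 5487 CPM there, against 5697 in C1q-negative cells, and Csf1r at 29.4 against 349. SPF day 7 stood apart within each class. There 76.7% of C1q-negative cells came from a cluster led by Saa3, Cxcl2 and Il1b, and 53.5% of C1q-positive cells from a low-depth cluster led by Saa3, Apoe and Lyz2. The summed level of 16 neutrophil markers in C1q-positive cells was 3011 CPM at SPF day 7 and 273 to 525 elsewhere, with all 16 detected there and 5 to 11 elsewhere. The sum of 9 plasma cell markers ran from 364 (pGF day 2) to 31484 CPM (SPF day 0), and those of 14 epithelial and 18 T or NK cell markers from 62.1 to 323 and 344 to 903. Their part in the results was not tested.

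In all libraries with both classes, C1q-positive macrophages held more Apoe, Trem2, Gpnmb and Cd63 than C1q-negative monocytes, though at pGF day 2 the Trem2 and Gpnmb values rest on very few UMIs or cells. Lpl stood the other way in SPF day 0 and pGF day 2, Lgals3 was near even, and the cathepsins lay between. Against neutrophils the macrophages were higher for Apoe, Trem2, Gpnmb, Cd63 and Ctsb in every library compared, and Ctsd was within 2-fold in each. The Gpnmb difference at pGF day 2 rests on a single macrophage there too. Between libraries the C1q-positive cells differed most in Fabp5, which at SPF day 7 stood 22.4-fold above SPF day 0. Folds are ratios of (CPM + 10), a pseudocount that pulls folds of low genes toward 1, and a gene is counted as higher or lower from 2-fold on. Intervals in brackets are 95% exact counting intervals and cover counting error only. In these sorted cells a level is a share of the class's UMIs, so a change in other genes of the class also moves it.

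**Figure D1:**
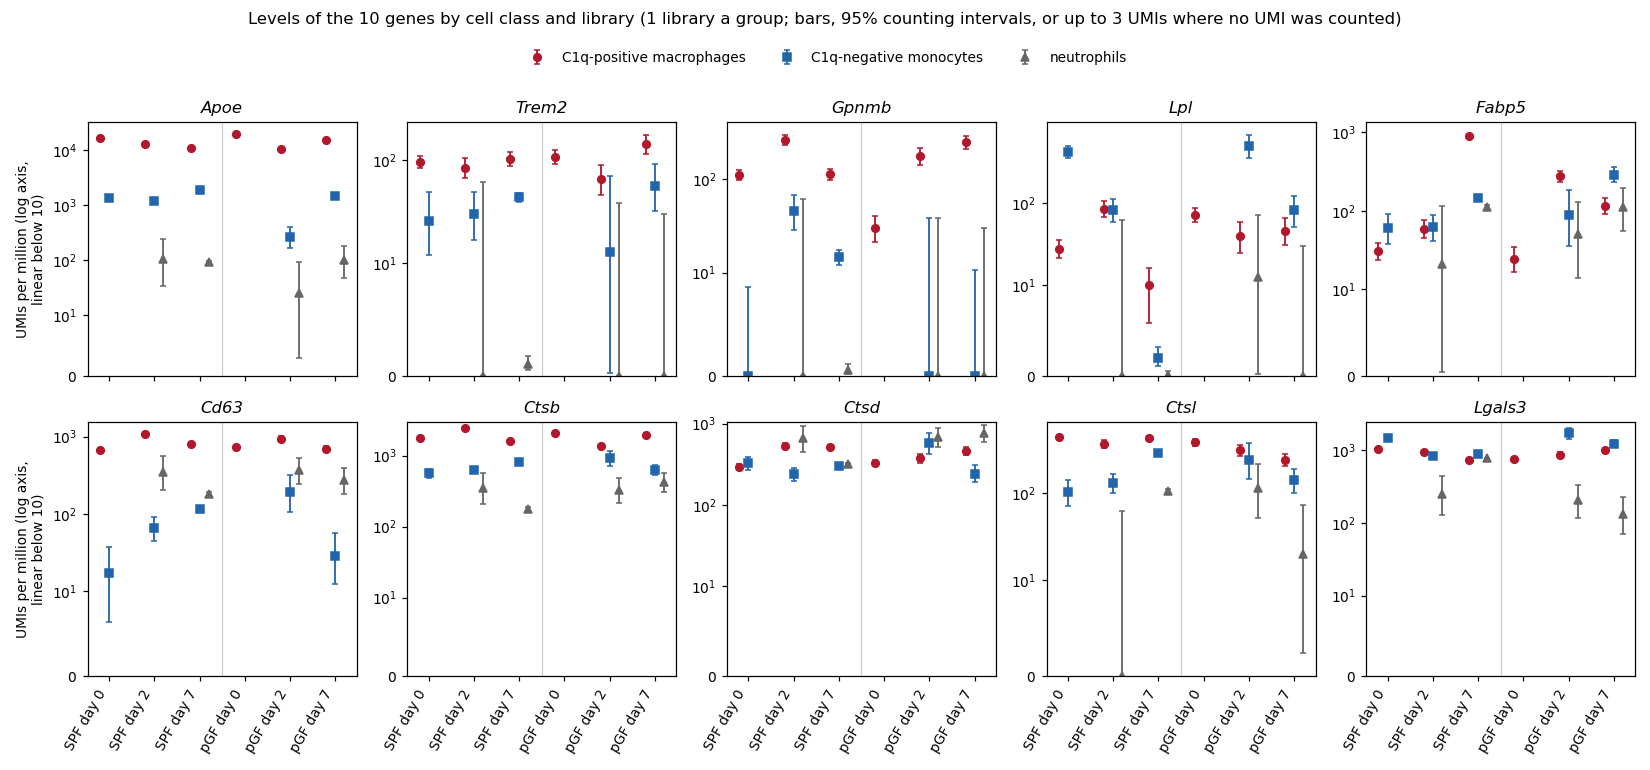
Level of each gene in CPM (log axis, linear below 10) in C1q-positive macrophages, C1q-negative monocytes and neutrophils of each library with at least 20 cells of the class. Bars are 95% counting intervals, and where no UMI was counted they reach the level of 3 UMIs. Apoe, Gpnmb and Cd63 are highest in the macrophages of every library, Lpl is highest in the monocytes of SPF day 0 and pGF day 2, and Fabp5 reaches 894 in the macrophages of SPF day 7.

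Apoe was at 16616, 12968 and 10979 CPM in C1q-positive macrophages of SPF at days 0, 2 and 7 and at 19663, 10444 and 15526 CPM in pGF. In C1q-negative monocytes it was at 1373, 1175 and 1919 CPM in SPF and at 267 [165, 408] and 1485 CPM in pGF at days 2 and 7. Neutrophils held 104 and 91.3 CPM in SPF at days 2 and 7 and 25.4 and 100.2 in pGF. The measured values of the 3 classes did not overlap for this gene. The macrophages stood 12.0, 10.9 and 5.70-fold above the monocytes in SPF at days 0, 2 and 7, and 37.7 and 10.4-fold in pGF at days 2 and 7. The first value in pGF rests on 21 Apoe UMIs in 24 monocytes. Against neutrophils the folds were 114 and 108 in SPF at days 2 and 7 and 141 in pGF at day 7. Those of SPF day 2 and pGF day 7 rest on few neutrophil UMIs. At pGF day 2 the neutrophils held 2 Apoe UMIs, and the ratio of CPM was 411 [114, 3393]. Among C1q-positive cells 94.7% to 98.2% had an Apoe UMI in each library, and 89.6% to 97.2% once each cell was thinned to 1000 UMIs. T or NK cells, which should lack Apoe, had one in 0.832% to 6.18% of thinned cells and held 9.31 to 45.5 CPM. The measured neutrophil values other than pGF day 2 lie above that range, but few UMIs in 35 and 67 cells limit SPF day 2 and pGF day 7. In SPF day 7 the low-depth neutrophil clusters 10 and 13 (745 and 760 median UMIs) held 759 and 371 CPM against 14.6 in cluster 5 (6571.5 median UMIs). Cluster 10 also held 6163 CPM of Saa3, a leading gene of the monocytes of that library.

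Lpl was the one gene of the 10 that stood higher in monocytes by a wide margin. C1q-negative monocytes held 414 [349, 487], 81.1 and 1.99 CPM in SPF at days 0, 2 and 7, and 496 [353, 678] and 81.1 CPM in pGF at days 2 and 7. C1q-positive macrophages held 27.8, 84.2 and 10.1 CPM in SPF and 71.8, 39.0 and 45.8 in pGF. The macrophages were 11.2-fold lower at SPF day 0 and 10.3-fold lower at pGF day 2, and the classes were within 2-fold at SPF day 2, SPF day 7 and pGF day 7. In thinned cells Lpl was found in 14.3% of monocytes and 1.14% of macrophages at SPF day 0 (unthinned 25.5% and 7.72%). Among thinned T or NK cells Lpl was found in at most 0.0426% in a library. Of the 7 Lpl-positive thinned monocytes of SPF day 0 none also held Apoe, which 24 of all 49 did. One cell carried 46 of the 144 monocyte UMIs there, and the level without it was 298 CPM. The SPF day 0 monocytes with most Lpl sat in cluster 21, led by Lyz2, Retnla and Chil3, at 515 CPM. Fibroblasts or smooth muscle cells held 236 to 379 CPM.

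Fabp5 was at 30.4 [23.7, 38.4], 59.2 [44.9, 76.8] and 894 [849, 940] CPM in C1q-positive macrophages of SPF at days 0, 2 and 7. In pGF it was at 24.4 [16.7, 34.5], 273 [232, 320] and 116 [90.7, 146] CPM. SPF day 7 was the highest library and the 2 day 0 libraries were the lowest. C1q-negative monocytes held 60.3, 61.3 and 144 CPM in SPF and 89.0 and 289 CPM in pGF at days 2 and 7. Neutrophils held 20.7 (1 UMI) and 111 CPM in SPF at days 2 and 7 and 50.8 and 110.3 CPM in pGF. The macrophages stood 5.88-fold above monocytes and 7.48-fold above neutrophils at SPF day 7. At pGF day 2 they stood 2.86-fold above monocytes, and at pGF day 7 2.37-fold below them and within 2-fold of neutrophils. At SPF days 0 and 2 macrophages and monocytes were within 2-fold. Single cells carried much of the pGF signal. One macrophage held 102 of the 154 UMIs of pGF day 2, and one held 29 of the 71 of pGF day 7, and without them the levels were 97.0 and 69.6 CPM. At SPF day 7 the top cell held 171 of 1505 UMIs, and without it the level was 798 CPM. In thinned macrophages Fabp5 was found in 3.41%, 4.14% and 31.1% of SPF cells and 2.08%, 4.08% and 6.78% of pGF cells (unthinned 15.4%, 15.5%, 45.2%, 14.4%, 13% and 16.7%). The share in thinned T or NK cells was 1.12% to 1.97%.

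Trem2 was at 96.9, 84.2 and 103 CPM in C1q-positive macrophages of SPF at days 0, 2 and 7 and at 108, 65.6 and 146 CPM in pGF. In C1q-negative monocytes it was at 25.8, 29.7 and 43.5 CPM in SPF and at 12.7 (1 UMI) and 56.4 CPM in pGF at days 2 and 7. The neutrophils of SPF day 7 held 1.08 CPM, and those of the 3 other libraries held no UMI, where 3 UMIs would be 62.1, 38.1 and 30.1 CPM. The measured macrophage values lay above the monocyte values in each library, but 3 UMIs in the neutrophils without any would lie within or above the monocyte values. The macrophages were 2.98, 2.37 and 2.12-fold above monocytes in SPF and 2.34-fold at pGF day 7, and at pGF day 2 the ratio of CPM was 5.16 [0.871, 209], an interval that includes even. These calls were lost with a pseudocount of 50 CPM in all 5 libraries, and in 4 of 15 alternatives each at SPF days 2 and 7. Against neutrophils the fold was 10.2 at SPF day 7. Where the neutrophils held no UMI, the ratio of CPM without the pseudocount, with 3 UMIs set there, was at least 1.36, 1.72 and 4.84 at SPF day 2, pGF day 2 and pGF day 7. Thinned macrophages with a Trem2 UMI made up 5.62% to 16.1% of a library's cells (unthinned 17.6% to 42.5%), and T or NK cells at most 0.0653%.

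Gpnmb was at 112 [98.5, 126], 266 [234, 301] and 113 [97.4, 130] CPM in C1q-positive macrophages of SPF at days 0, 2 and 7. In pGF it was at 29.8 [21.2, 40.7], 176 [143, 214] and 250.2 [212, 293] CPM. C1q-negative monocytes held no UMI at SPF day 0, pGF day 2 and pGF day 7, and 45.5 and 14.6 CPM at SPF days 2 and 7. Neutrophils held 0.618 CPM at SPF day 7 and no UMI elsewhere. The macrophages stood 4.97 and 5.00-fold above monocytes at SPF days 2 and 7. With 3 UMIs set where monocytes held none, the ratio of CPM without the pseudocount was at least 13, 4.60 and 23.6 at SPF day 0, pGF day 2 and pGF day 7. Against neutrophils the fold was 11.6 at SPF day 7, and the same CPM ratio was at least 4.28, 4.61 and 8.32 at SPF day 2, pGF day 2 and pGF day 7. The gene was concentrated in few cells. It was found in 9.15% to 27.1% of macrophages outside pGF day 2 and in 2.04% to 15.4% of thinned macrophages over all libraries, against at most 0.810% of thinned T or NK cells. At pGF day 2 it was found in 2.78%, where one cell held 83 of 99 UMIs and the level without it was 29.9 CPM. That is below the 38.1 CPM that 3 UMIs would be in the monocytes or in the neutrophils. The call against neutrophils there was lost in 2 of 15 alternatives. The 5 top cells of SPF day 0 held 49.0% of that library's macrophage Gpnmb. Among thinned macrophages, Trem2 and Gpnmb were found together in 0, 7 and 3 cells of SPF and 1, 0 and 5 cells of pGF. At SPF day 7, 31 of 36 Gpnmb-positive thinned cells also held Fabp5, which 105 of all 338 did.

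Cd63 was at 663, 1083 and 802 CPM in C1q-positive macrophages of SPF at days 0, 2 and 7 and at 725, 944 and 697 CPM in pGF. C1q-negative monocytes held 17.2, 65.3 and 116 CPM in SPF and 191 and 28.2 CPM in pGF at days 2 and 7, and neutrophils lay between the 2 other classes, at 352, 182, 369 and 271 CPM (SPF day 2, SPF day 7, pGF day 2 and pGF day 7). The macrophages were 24.7, 14.5 and 6.44-fold above monocytes in SPF and 4.75 and 18.5-fold in pGF. Against neutrophils they were 3.02 and 4.23-fold higher in SPF at days 2 and 7 and 2.52-fold in pGF at both days. Cd63 was found in 40.8% to 52.8% of thinned macrophages (unthinned 62.0% to 85.0%) and in 0.405% to 3.53% of thinned T or NK cells. Mast cells or basophils, whose granules carry CD63, held 992 to 3376 CPM, and fibroblasts or smooth muscle cells 984 to 1377.

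The cathepsins differed among themselves. Ctsb was at 1742, 2456 and 1580 CPM in C1q-positive macrophages of SPF and at 2064, 1346 and 1981 CPM in pGF, against 560, 627 and 825 CPM in SPF monocytes and 915 and 628 in pGF monocytes. The macrophages were 3.07 and 3.87-fold higher at SPF days 0 and 2 and 3.12-fold at pGF day 7, and within 2-fold at SPF day 7 (1.90) and pGF day 2 (1.47). Ctsl was at 448, 368 and 431 CPM in SPF and 387, 314 and 245 CPM in pGF macrophages, against 103, 131 and 291 CPM in SPF and 242 and 141 CPM in pGF monocytes. It passed 2-fold at SPF days 0 and 2, by 4.04 and 2.69-fold. Ctsd was at 296, 533 and 517 CPM in SPF and 328, 372 and 460 CPM in pGF macrophages, against 327, 239 and 304 CPM in SPF and 572 and 243 CPM in pGF monocytes. It passed 2-fold over monocytes at SPF day 2 alone, by 2.18-fold, and that call was lost in 4 of 15 alternative settings. Neutrophils held 663, 318, 686 and 762 CPM of Ctsd (SPF day 2, SPF day 7, pGF day 2 and pGF day 7), above the macrophages of the same library in 3 of 4 libraries by 1.24 to 1.82-fold. They held less Ctsb, at 352, 179, 330 and 421 CPM, by 6.81, 8.43, 3.98 and 4.62-fold. Neutrophil Ctsl was at 106 CPM at SPF day 7. It rested on 9 UMIs at pGF day 2, 2 at pGF day 7 and none at SPF day 2, where the CPM ratio with 3 UMIs set there was at least 5.92. T or NK cells held 151 to 209 CPM of Ctsd and 81.4 to 125 of Ctsb.

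Lgals3 was at 1035, 926 and 719 CPM in C1q-positive macrophages of SPF and at 761, 846 and 989 CPM in pGF. C1q-negative monocytes held 1444, 839 and 867 CPM in SPF and 1704 and 1224 CPM in pGF at days 2 and 7. The classes were within 2-fold in 4 of 5 libraries, and at pGF day 2 the macrophages were 2.00-fold lower, a call lost in 8 of 11 alternatives. Neutrophils held 249 and 770 CPM in SPF at days 2 and 7 and 203 and 130 CPM in pGF. The macrophages were 3.62, 4.01 and 7.12-fold higher at SPF day 2, pGF day 2 and pGF day 7, and at SPF day 7 the classes were near even (1.07-fold lower). Epithelial cells held 2156 to 4296 CPM and dendritic cells 654 to 1411.

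Read as counts, 6, 7 and 5 of the 10 genes were at least 2-fold higher in macrophages than in monocytes of SPF at days 0, 2 and 7, where 6.42%, 6.46% and 5.38% of all genes tested were. Lower were 1, 0 and 0, against 6.55%, 8.16% and 2.07% of all genes. In pGF at days 2 and 7, 5 and 5 genes were higher and 2 and 1 lower, against 19.5% and 11% of all genes higher and 14.6% and 8.36% lower. The median log2 ratio of the 10 was 1.60, 1.34 and 1.01 in SPF and 1.03 and 1.06 in pGF, and that of all genes tested was -0.14, -0.13, 0.21, -0.12 and -0.02. The genes higher in all 5 libraries were Apoe, Trem2, Gpnmb and Cd63. At pGF day 2 the Gpnmb call rests on 1 macrophage, without which the level (29.9 CPM) was under that of 3 UMIs in the monocytes, and the Trem2 call on 1 monocyte UMI. The Fabp5 call of that library rests on 1 macrophage as well. Without that cell Fabp5 was near the monocyte level of 89.0 CPM, itself from 7 UMIs. Against neutrophils 9, 7, 9 and 8 genes were higher at SPF day 2, SPF day 7, pGF day 2 and pGF day 7 and none was lower. All genes tested were higher in 45.3%, 33.5%, 42.4% and 38.4% and lower in 19.7%, 7.65%, 15.2% and 17.6%, so those counts stand on a wide background. The medians were 3.0, 2.49, 2.00 and 2.66 for the 10 and 0.59, 0.70, 0.54 and 0.40 for all genes. With genes at no UMI set at 3 UMIs, 7, 7, 8 and 7 were higher, with medians of 1.73, 2.49, 1.69 and 2.24. At pGF day 2 the Gpnmb and Fabp5 calls against neutrophils rest on their top cells as well. They were lost in 2 and 3 of 15 alternatives. Scaling by the trimmed mean of M values (TMM) moved the log2 ratios against monocytes by 0.22, 0.20, -0.43, 0.35 and 0.08 in the library order above. Against neutrophils it moved them by 0.46, -1.21, 0.18 and 0.13. At SPF day 7 it ended the calls of Trem2 against monocytes and of Cd63 and Ctsl against neutrophils, and it put Lgals3 past 2-fold lower against neutrophils.

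**Figure D2:**
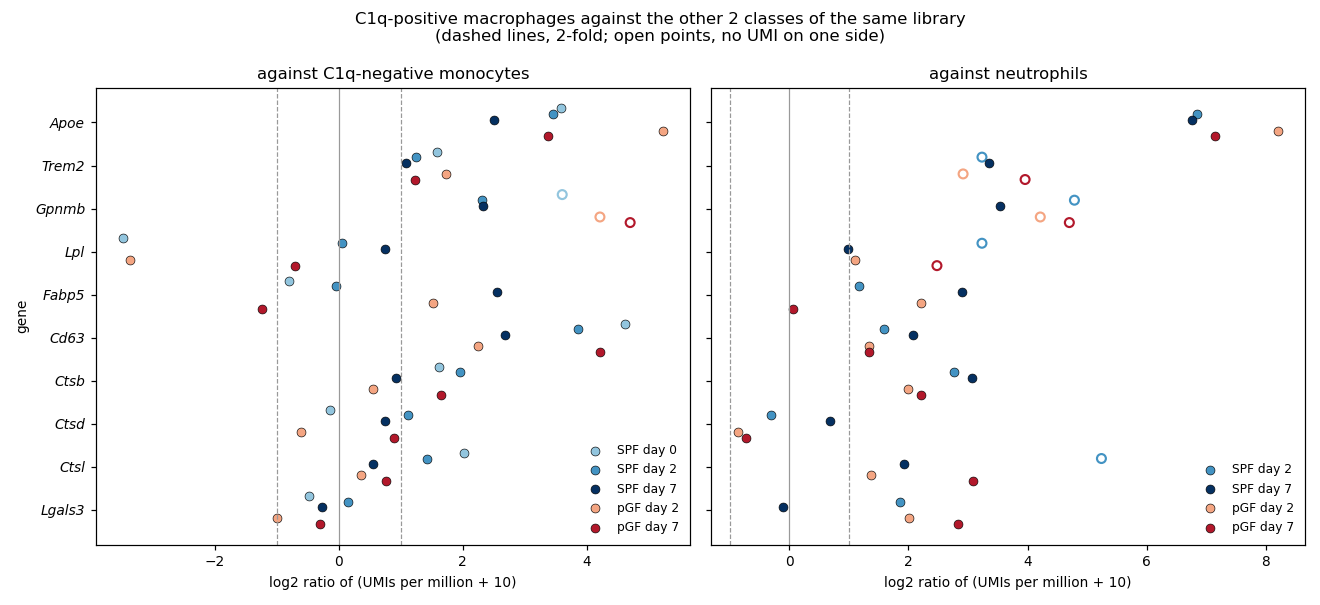
Log2 ratios of (CPM + 10) of C1q-positive macrophages over C1q-negative monocytes (left) and over neutrophils (right) of the same library, 1 point a library. Dashed lines mark 2-fold, and open points have no UMI in the other class, so their place depends on the pseudocount. Apoe, Trem2, Gpnmb and Cd63 lie right of the 2-fold line in all libraries of the left panel, and Lpl reaches -3.49 at SPF day 0 and -3.37 at pGF day 2.

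Between pGF and SPF macrophages of the same day the genes were mostly close, apart from Fabp5, Gpnmb and Lpl. These comparisons set pGF beside SPF mice, without DSS at day 0 and with DSS at days 2 and 7. Each side is 1 library, so antibiotic treatment cannot be told apart from the library. At day 0, Gpnmb was 3.06-fold lower and Lpl 2.16-fold higher in pGF, against 0.875% of all genes lower and 0.74% higher, and the 8 others lay between -0.44 and 0.24 on the log2 scale. The Lpl call was lost in 5 of 15 alternatives, and without the top cell the pGF level was 45.7 in place of 71.8 CPM. At day 2, Fabp5 was 4.09-fold higher in pGF and no gene was 2-fold lower, against 3.12% higher and 2.9% lower of all genes. It rests on the cell named above, and was lost in 4 of 15 alternatives. At day 7, Gpnmb was 2.12-fold and Lpl 2.78-fold higher and Fabp5 7.17-fold lower in pGF, against 5.54% and 5.27% of all genes. The Fabp5 ratio stayed past 2-fold in all 15 alternatives, at -4.04 to -1.81 on the log2 scale, whereas that of Gpnmb was lost in 8 and that of Lpl in 1. Median log2 ratios of the 10 were 0.14, -0.31 and 0.39 at days 0, 2 and 7, and -0.01, 0.02 and 0.11 for all genes.

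The comparisons between days share libraries. Within SPF, Gpnmb was 2.27-fold and Lpl 2.49-fold higher at day 2 than at day 0, against 1.9% of all genes higher. Each of these calls was lost in 2 of 15 alternatives. No gene was lower, against 1.45%. At day 7 against day 0, Fabp5 alone passed 2-fold, at 22.4-fold, where 5.6% of all genes were higher and 5.76% lower. It kept a log2 ratio of 3.37 to 5.44 in all 15 alternatives. At day 7 against day 2, Fabp5 was 13.1-fold higher, Gpnmb 2.25-fold lower and Lpl 4.69-fold lower, against 4.91% of all genes higher and 8.49% lower. The Gpnmb call was lost in 7 of 15 alternatives. Within pGF, Gpnmb was 4.67-fold and Fabp5 8.22-fold higher at day 2 than at day 0, against 4.16% of all genes higher and 1.99% lower. Both rest on single cells of pGF day 2. Without the top cell Gpnmb was at 29.9 CPM there against 29.8 at day 0, which is near even, and Fabp5 at 97.0 against 24.4. The ratio of Gpnmb turned to the other side of even in 3 alternatives that removed cells or thinned them. At day 7 against day 0, Gpnmb was 6.54-fold and Fabp5 3.66-fold higher, against 1.82% higher and 1.87% lower. Both stayed past 2-fold in all 15 alternatives. At day 7 against day 2, Trem2 was 2.06-fold higher and Fabp5 2.25-fold lower, against 1.69% and 3.1%, and each call was lost in 7 of 15 alternatives. In 3 of them Fabp5 was higher at day 7, at 0.70, 0.62 and 0.56 on the log2 scale. Apoe, Cd63, Ctsb, Ctsd, Ctsl and Lgals3 stayed within 2-fold in all 9 comparisons between macrophage libraries as scaled here. TMM scaling moved these log2 ratios by -0.35 to 0.29.

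**Figure D3:**
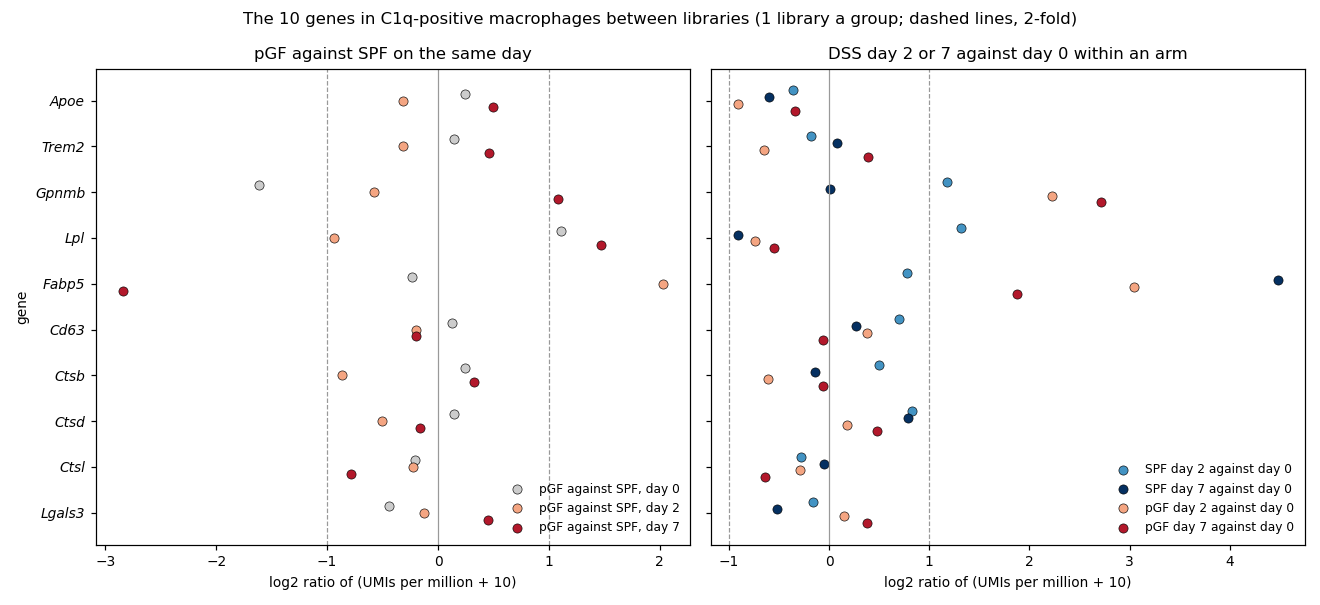
Log2 ratios of (CPM + 10) in C1q-positive macrophages, pGF over SPF of the same day (left) and day 2 or 7 over day 0 of the same arm (right), with dashed lines at 2-fold. Fabp5 lies at -2.84 for pGF over SPF at day 7 and at 4.48 for SPF day 7 over day 0, and Apoe, Cd63, Ctsb, Ctsd, Ctsl and Lgals3 stay between the dashed lines.

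The macrophages of SPF day 7 came from several clusters, and the genes differed among them. Fabp5 was at 2912 CPM in 244 cells of the low-depth cluster 18 (1030 median UMIs), and at 412, 417 and 362 CPM in 101 cells of cluster 6, 75 of cluster 11 and 29 of cluster 21. Cluster 11, led by Apoe and the C1q genes, held most C1q-positive cells of the other libraries, 93.0% at SPF day 0. In it Fabp5 was at 26.8 and 50.3 CPM in SPF at days 0 and 2 and at 23.4, 286 and 91.6 CPM in pGF. SPF day 7 was the highest of these sums. The top Fabp5 cells named above were not left out of them, so this order may rest on single cells. Gpnmb in the SPF day 7 cells was at 396 CPM in cluster 18 and 63.0 in cluster 6, with 1 UMI in cluster 11 (2.02 CPM). The same cluster 11 held 118 and 256 CPM in SPF at days 0 and 2 and 31.4, 185 and 273 CPM in pGF. Apoe of the SPF day 7 cells was at 20857 CPM in cluster 11, 14291 in cluster 18, 7397 in cluster 21 and 3278 in cluster 6. Cluster 18 also held the most Cd63, at 1962 CPM against 402 in cluster 6 and 734 in cluster 11. Saa3, an acute-phase gene, was at 9939, 19334 and 107 CPM in clusters 18, 6 and 11 of that library, and S100a8 at 1130 CPM over its C1q-positive cells. The part of these genes, of depth and of free RNA in the Fabp5 level was not tested. Without the low-depth clusters the log2 ratio of Fabp5 at SPF day 7 over day 0 was 3.37.

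**Figure D4:**
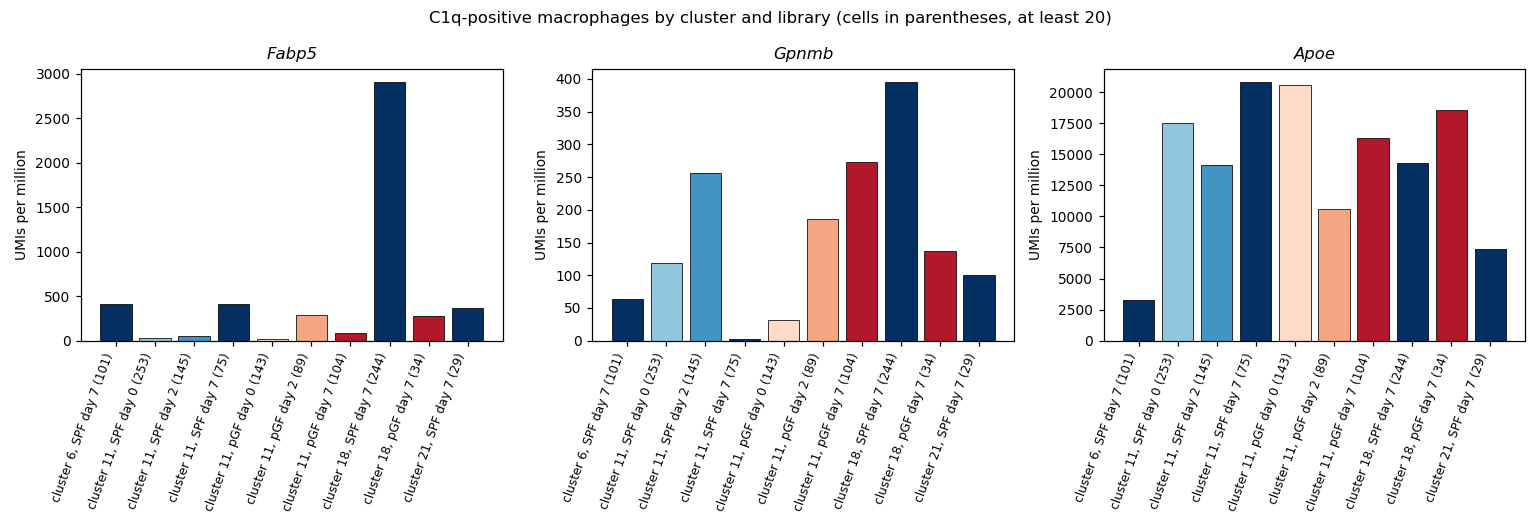
Levels in CPM of Fabp5, Gpnmb and Apoe in C1q-positive macrophages of each cluster and library with at least 20 cells (numbers of cells in parentheses). Fabp5 is at 2912 in cluster 18 of SPF day 7 and at 23.4 to 417 in the other bars, and Gpnmb is at 2.02 in cluster 11 of SPF day 7.

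C1q-negative monocytes differed between libraries most in Lpl, and also in Apoe and Cd63. They held 5.55-fold more Lpl in pGF than in SPF at day 2 and 7.60-fold more at day 7, and 4.65-fold and 35.3-fold less at SPF days 2 and 7 than at day 0. Within pGF the day 7 monocytes held 5.55-fold less than those of day 2. Apoe was at -2.10 on the log2 scale for pGF over SPF at day 2 and at 2.43 for pGF day 7 over 2. Both held in all 11 alternatives and rest on 21 Apoe UMIs at pGF day 2. Cd63 was at -1.72 for pGF over SPF at day 7. It was at 2.21 for SPF day 7 over 0 and -2.39 for pGF day 7 over 2, each lost in 1 alternative. The Cd63 values rest on 6 UMIs at SPF day 0, 15 at pGF day 2 and 8 at pGF day 7. At pGF against SPF, 4 genes were higher and 2 lower at day 2 (Lpl, Cd63, Ctsd and Lgals3 above, Apoe and Gpnmb below), and 1 and 2 at day 7. At day 2 the calls of Cd63 and Ctsd were each lost in 5 of 11 alternatives and that of Lgals3 in 8 of 11. All genes tested were higher in 12.2% and 11.7% and lower in 17.7% and 5.26%. Gpnmb was at 0 UMIs in the pGF monocytes of both days, with a CPM ratio at least 1.19 and 1.38 times lower once 3 UMIs are set there, so it leaves the count once set at 3 UMIs. In SPF the counts were 2 higher and 1 lower at day 2 against day 0 (11.5% and 4.39% of all genes), 4 and 1 at day 7 against day 0 (6.89% and 15.9%) and 2 and 2 at day 7 against day 2 (4.59% and 23.8%). In pGF at day 7 against day 2 they were 3 and 3 (15.2% and 20.6%). The 24 monocytes of pGF day 2 limit each of its values. At SPF day 7, 16 neutrophil markers summed to 7097 CPM in the monocytes, against 114 to 772 elsewhere, and their part was not tested.

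Neutrophils could be compared at days 2 and 7, and nearly all of them came from SPF day 7 (3678 cells). The neutrophils of that library held more Lgals3, which was 5.56-fold lower in pGF at day 7 and 3.02-fold higher at SPF day 7 than at day 2. The call against day 2, from 35 cells at day 2, was lost in 3 of 13 alternatives. At pGF against SPF, Ctsb and Ctsd were 2.29 and 2.35-fold higher at day 7, calls lost in 4 and 1 of 13 alternatives. Ctsl was lower there with a ratio of CPM of 0.190 [0.0230, 0.688], from 2 UMIs. Counts past 2-fold were 2 higher and 1 lower at day 2 and 2 and 2 at day 7, where 31% and 20.9% of all genes were higher and 24.9% and 10.5% lower. Ctsd was 2.05-fold lower at SPF day 7 than at day 2, from 32 UMIs at day 2, a call lost in 4 of 13. Within SPF at day 7 against day 2 the counts were 3 and 1 (18.7% and 38.1% of all genes) and within pGF 1 and 2 (25% and 23.4%). Apart from Lgals3, Ctsb and Ctsd, these counts rest on genes with 0 to 2 UMIs on one side, among them Ctsl and Fabp5 at SPF day 7 against day 2 (0 and 1 UMI at day 2). In pGF against SPF at day 2, both higher genes had no UMI in SPF, and none was higher with 3 UMIs set there. In SPF day 7 the neutrophil clusters were mainly 5, 10 and 13, and in the other libraries cluster 15. Within cluster 15 Lgals3 was at 349 CPM at SPF day 7 and 249, 203 and 123 CPM at SPF day 2, pGF day 2 and pGF day 7. TMM scaling moved the log2 ratios of neutrophils by -0.86 to 1.19 and those of monocytes by -0.60 to 0.94. It left 2 of the 4 calls of pGF against SPF neutrophils at day 7 and turned Ctsd at SPF day 7 over day 2 to 0.13.

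Wider gene lists were read beside the 10, without a test. Of 24 measured genes of lysosomal hydrolases and membrane, 3, 5 and 10 were at least 2-fold higher in macrophages than in monocytes of SPF at days 0, 2 and 7 and 7 and 4 in pGF at days 2 and 7. Of all genes tested 6.42%, 6.46%, 5.38%, 19.5% and 11% were, so the counts at SPF day 0 and in pGF stand nearer to the background than that of SPF day 7. None was lower. Lgmn, which encodes the lysosomal protease legumain, led in each library, with log2 ratios of 1.93, 2.10, 1.70, 2.51 and 2.29. The vacuolar proton pump that acidifies lysosomes had at most 1 higher and 2 lower of 14 or 15 genes in a library. Of the 19, 21, 22, 24 and 23 measured genes of lipid uptake and efflux, 1, 6, 5, 5 and 4 were higher, against the same shares of all genes, so that SPF day 0 and pGF day 2 sit at the background. Lower were 2, 3, 0, 6 and 2, against 6.55%, 8.16%, 2.07%, 14.6% and 8.36% of all genes. Pla2g7, which encodes a phospholipase, was higher at SPF days 0 and 2 and pGF day 2, and Pltp, which encodes the phospholipid transfer protein, at SPF days 2 and 7 and pGF day 7. Among regulators, Maf, a transcription factor of resident macrophages, was higher in all 5 libraries, with log2 ratios of 1.84, 3.20, 1.78, 1.95 and 2.17. Tyrobp, Syk and other partners of TREM2 were at least 2-fold higher in macrophages in no library. Against monocytes 2 of 5 were lower at SPF day 2 and 1 at pGF day 7. Against neutrophils 4, 1, 4 and 3 of 5 were lower, where 19.7%, 7.65%, 15.2% and 17.6% of all genes were.

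Between macrophage libraries at most 1 of 24 genes of the lysosomal list was past 2-fold in any of the 9 comparisons. Of all genes 0.74% to 5.6% were higher and 0.875% to 8.49% lower in these, shares at which few of 24 genes would pass. At SPF day 7 against day 0, 8 of 22 measured lipid genes were higher and 1 lower, against 5.6% and 5.76% of all genes. Against day 2, SPF day 7 had 4 higher and 5 lower (4.91% and 8.49% of all genes), and at pGF against SPF of day 7, 3 and 4 (5.54% and 5.27%). In the 6 comparisons without the SPF day 7 library 1 to 3 lipid genes were past 2-fold in either direction. Of all genes 0.74% to 4.16% were higher and 0.875% to 3.1% lower in those. Higher were 3 of 21 lipid genes at SPF day 2 against day 0 and 3 of 23 at pGF day 7 against day 0. None was lower in these 2, where 1.9% and 1.82% of all genes were higher. At SPF day 7 against day 0, Apoc2, an apolipoprotein that activates LPL, was at 199.5 against 23.0 CPM. In the same comparison Plin2, which coats lipid droplets, was at 432 against 182 CPM, and the next values are from it as well. The scavenger receptor Cd36 was lower, at 16.6 against 69.6 CPM. Spp1, which encodes osteopontin and is often seen with Trem2, was at 296 against 5.65 CPM, and Cstb, an inhibitor of cysteine cathepsins, at 1124 against 330 CPM. Maf and Igf1 were lower, at -1.18 and -2.28 on the log2 scale. The lists these genes come from were mixed. Of 10 measured genes often seen with Trem2, 3 were higher and 2 lower. Of 4 cathepsin inhibitors 2 were higher and 1 lower, and of 8 regulators 0 and 2. At pGF against SPF of day 7 several of these genes stood the other way. Spp1 was at 13.1 against 296 CPM, Apoc2 at 29.4 against 199.5, Plin2 at 144 against 432 and Mmp12, a macrophage metalloelastase, at 14.7 against 159. Cd36 was at 106 against 16.6 CPM, Igf1 at 73.6 against 7.72 and Maf at 353 against 87.3. Here 2 of the 10 genes often seen with Trem2 were higher and 2 lower, with 1 and 1 of 4 inhibitors and 1 and 0 of 8 regulators. Both comparisons use the SPF day 7 library.

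Across the 15 profiles of class and library, the genes nearest in pattern were named by the Pearson correlation of log2(CPM + 10) among 5102 genes. These are descriptions, since the profiles share libraries and 3 classes set most of the spread. Apoe and Trem2 were nearest to each other (0.975), followed by Rgs10 and Cxcl16 for Apoe and Cxcl16 and Cmklr1 for Trem2. Gpnmb lay nearest to Pdgfa (0.955), Cd72 and Tlr12, and Ctsb to Itgb5 (0.953), Itm2c and Rnase4. Lpl lay nearest to Clec4b1 (0.943), Kcnn4 and Qpct, which were highest in monocytes of SPF day 0 or pGF day 2. Cd63 lay nearest to Lpcat2 (0.884), Mvb12b and Ppt1, Ctsl to Glmp (0.966), Mdh1 and Med28, and Lgals3 to Rptor (0.929), Rpsa and Vim. Ctsd lay nearest to Ndst1 (0.913), Amdhd2 and Nck1, which were highest in pGF neutrophils. Fabp5 had the weakest neighbours, Ass1 (0.801), Spon1 and Cfl1, all highest in the macrophages of SPF day 7. Among the 10, Ctsb followed Apoe (0.915) and Ctsd did not (-0.41), while Ctsd and Lgals3 ran opposite (-0.65).

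Outside these classes, Trem2 stayed at 0 to 7.27 CPM and Gpnmb at 0 to 73.2 CPM in the other named classes with at least 20 cells in a library, with the top Gpnmb value in plasma cells of SPF day 7. Apoe reached 707 to 977 CPM in B cells. Fabp5 was at 23.2 to 487 CPM in dendritic cells, with SPF day 7 again the highest library, and at 14.6 to 22.0 CPM in T or NK cells with no such step (22.0 at SPF day 7).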

How the data were processed

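CD45-positive colon cells of 6 libraries, 1 per group, were profiled with a 10x 5′ kit. The deposited values are raw UMI counts per gene and cell, made with Cell Ranger 6.1.2 per the file headers. The build is mm10 per the submitters' processing notes, which also name R 4.1.3 and Seurat 4.1.1 with no role given. Here cells with at least 200 genes and at most 10% mitochondrial UMIs were kept, and simulated doublets (2 per cell) were scored and removed at 0.8% per 1000 barcodes. Cells were clustered without the 10 genes and the wider lists (scanpy 1.11.5, 2000 variable genes, 30 components, 20 neighbours, Leiden resolution 1), giving 49 clusters named from marker lists, with no correction between libraries. The naming rule for erythroid clusters was revised after clusters were seen. Counts were summed per class and library into CPM, with exact 95% counting intervals, which cover counting error only. TMM factors came from edgeR 4.0.16. Background shares are over genes with at least 10 CPM on a side. The script was tested on simulated data. Genes outside the 10 were named from each wider list by fold, at most 4 a direction, with at least 50 CPM and 20 UMIs on the higher side. The 3 genes most like each member were ranked by Pearson correlation. The members and lists were chosen with earlier results of these data known. Another 15 settings were tried.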

Additional observations from a re-analysis of the deposited data

Results flagged for a closer look

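Fabp5 in C1q-positive macrophages stood in opposite directions from day 2 to day 7 in the 2 arms. On the log2 scale it was 3.71 higher in SPF (59.2 to 894 CPM) and at -1.17 in pGF (273 to 116 CPM). With 1 library per group the difference was not tested. In pGF day 2 one cell held 102 of the 154 Fabp5 UMIs, and the pGF value missed 2-fold in 7 of 15 alternative settings. In 3 of these it turned positive (0.70, 0.62 and 0.56), so there the 2 arms did not stand in opposite directions.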

How the results depend on the processing

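Each group is 1 library, so no replicate could be left out. No paired analysis was possible because no test was made. Of 400 counts of genes past 2-fold under alternative settings, 349 stayed close and 51 moved. Of 1756 values of genes past 2-fold, 1587 stayed past it, 158 did not and 11 turned direction. Counts of genes past 2-fold that moved are given by setting, for macrophages (C1q-positive) unless monocytes or neutrophils are named, and the cause was not tested. With a pseudocount of 1, pGF against SPF gave 2 at day 2 and 5 in monocytes at day 7, and SPF day 7 against 0 gave 2. With 50, pGF against SPF gave 1 at days 0 and 7, SPF day 2 against 0 gave 0 (monocytes 1), pGF day 7 against 2 gave 0 (neutrophils 1), and SPF monocytes gave 3 at day 7 against 0 and 1 against 2. TMM gave 2 for pGF against SPF at day 2 and for neutrophils at day 7, 1 for SPF day 2 against 0, 4 for pGF day 2 against 0, and 8 for SPF monocytes at day 7 against either day. It put Ctsd of neutrophils at 0.13 for SPF day 7 over 2. At most 5% mitochondrial UMIs gave 2 for pGF against SPF at day 2, 3 for SPF day 7 against 0, and in monocytes 5 for pGF against SPF at day 7 and 1 for SPF day 7 against 2. At most 20% gave 1 and 2 for pGF against SPF at days 0 and 2, 0 for pGF day 7 against 2, and 5 in neutrophils at day 2. At least 500 genes gave 2 for pGF against SPF at day 2 and SPF day 7 against 0, 1 for pGF day 7 against 2, and 2 for SPF monocytes at day 7 against 2. Keeping doublets gave 2 for SPF day 7 against 0, 4 for pGF day 2 against 0, 0 for pGF day 7 against 2, and 5 for monocytes, pGF against SPF, at day 7. Resolution 2 gave 1 for pGF against SPF at day 0 and 3 in monocytes at day 2. Clustering with the members gave, in monocytes, 6 for pGF against SPF at day 7 and 5 for SPF day 2 against 0. Leaving out cells near the C1q threshold gave 2 for pGF against SPF at day 2, and in monocytes 5 at day 7 and 2 for SPF day 7 against 2. Splitting C1q by cluster gave 8 for macrophages against monocytes at SPF day 7, 1 for pGF against SPF at day 0 and 2 for SPF day 7 against 0. Thinning gave 2 for pGF against SPF at day 2 and 3 for SPF day 7 against 0, and cell means gave the same with 1 for pGF day 7 against 2 and 3 for monocytes, pGF against SPF, at day 2. Leaving out low-depth clusters, chosen after seeing the data, gave 2 for SPF day 7 against 0 and 2 for SPF monocytes at day 7 against 2. Log2 ratios that turned direction were Gpnmb at pGF day 2 over 0 (-1.50 at 5% mitochondrial UMIs, -1.18 at 500 genes, -0.61 thinned) and Fabp5 at pGF day 7 over 2 (0.70, 0.62, and 0.56 as cell means). Gpnmb of pGF over SPF at day 7 was -0.076 as cell means. In monocytes, clustering with the members gave -1.04 for Cd63 at SPF day 2 over 0 and -1.13 for Fabp5 at day 7 over 0, and Gpnmb at SPF day 7 over 2 was 1.26 without low-depth clusters. The pGF day 2 monocyte comparisons were not run where fewer than 20 cells were left (5% mitochondrial UMIs, 500 genes, thinning, no low-depth clusters). Depth limits Trem2, Gpnmb and Lpl most, since 3 UMIs are 30.1 to 62.1 CPM in neutrophils outside SPF day 7.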

Other observations

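The C1q-negative cells of pGF day 0 and the neutrophils of both day 0 libraries were too few to compare (11, 1 and 5 cells). The 11 cells held 6815 CPM of Apoe, 52.4 of Lpl and 87.4 of Fabp5, and no Gpnmb or Trem2 UMI.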
